A study of Mus musculus with 8 samples.

Results

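The levels of 6 transcription factor genes, Zic1, Zic2, Zic4, Zic5, Nr2f1 and Nr2f2, were followed in hypothalamus of wild-type and Foxd1-mutant mouse embryos. They were taken by gene symbol and make up 6 of the 22725 symbols present in all 8 deposited FPKM tables. They are a chosen part of the Zic and Nr2f families, and counts of Zic or Nr2f genes below cover these 6 alone. Nr2f6, a further Nr2f gene, is given with the related nuclear receptors. FPKM is the number of sequenced fragments per kilobase of transcript, scaled to the depth of the library, so that levels of different genes can be set side by side within a library. All 6 genes were measured in every library, none was at 0, and all 6 were high enough to be tested in every comparison.

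Zic genes encode zinc finger transcription factors that are related to the Gli proteins of hedgehog signalling and are active in the dorsal neural tube, the forebrain midline and the meninges. Zic1 and Zic4 are neighbours in the genome, as are Zic2 and Zic5, and loss of Zic2 function causes holoprosencephaly. Nr2f1 and Nr2f2 encode the orphan nuclear receptors COUP-TFI and COUP-TFII, which pattern the cortex and the ventral forebrain, guide migrating interneurons and, in the case of Nr2f2, specify venous endothelium. Foxd1 encodes a forkhead transcription factor, and in the developing retina Zic2 depends on it. The study compared hypothalamus with and without Foxd1, and the question here is how these 6 genes stood in that comparison.

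The series holds 8 libraries from dissected hypothalamus, 4 labelled wild-type and 4 labelled Foxd1-mutant. There was 1 library per genotype at E12.0, 1 per genotype at E12.5 and 2 per genotype at E17.5, where E stands for the embryonic day. The mutants were Foxd1-null, and no other allele or agent is given for either genotype. Altogether 8 null and 10 control embryos were collected, RNA was pooled for each library, and 100 cycles were sequenced from paired ends. The labels describe control embryos in words that name both genotypes, and the dissection account names E12.5 and E17.5 alone, so genotype and stage were taken from each library's source name. Whether the pools came from separate litters is not given, so p-values measure the spread between these libraries.

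The label of each library was checked on Foxd1. Its level was 24.95 FPKM at E12.0 and 30.3 at E12.5 in the wild-type libraries, against 2.77 and 2.497 in those of the mutant. At E17.5 the wild-type libraries held 3.90 and 1.96 FPKM of it and the mutant ones 0.396 and 0.230, so each library lay on the side its label gives. Of 12 hypothalamus markers, only Avp was under 1 FPKM in any library, in all 4 early ones. Depth, read from the steps between the lowest values, was 30.3 to 43.5 M fragments at E17.5. At E12 the steps were less clear and gave 4.03 M for the wild-type and 16.9 M for the mutant library at E12.0, and 56.2 and 12.4 M at E12.5. By these estimates, which are uncertain at E12, the wild-type E12.0 library is the shallowest of the 8. It enters every E12.0 comparison.

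The start sites of these genes are shown first, because the results turn on pairs of them: Zic1 and Zic4 start next to each other on opposite strands, and Nr2f1 and Nr2f2 each have more than 1 start. RefSeq windows of 250 bases before to 50 bases after a start, on build GRCm38.p6, were found for 5 of the 6 genes, 6 windows in all. The 3 motifs searched, on both strands, were a forkhead core TGTTTAC, a nuclear receptor half-site AGGTCA and a Zic core CAGCAGG. Of all 32851 windows of this length in the table, 3.65% held the forkhead core, 16.26% the half-site and 10.51% the Zic core. Capitals in a sequence mark a match, and matches did not overlap. The windows of Zic1 (chr9:91365719-91366018, minus strand) and Zic4 (chr9:91368722-91369021, plus strand) face away from each other and held none of the 3 motifs. The Nr2f2 window (chr7:70366697-70366996, minus strand) lies at the upstream start, which is the start of the transcript for a shorter Nr2f2 protein, and held none. The downstream window of Nr2f1 (chr13:78196400-78196699, minus strand) held 1 forkhead core at position -148 from the start.
Zic1: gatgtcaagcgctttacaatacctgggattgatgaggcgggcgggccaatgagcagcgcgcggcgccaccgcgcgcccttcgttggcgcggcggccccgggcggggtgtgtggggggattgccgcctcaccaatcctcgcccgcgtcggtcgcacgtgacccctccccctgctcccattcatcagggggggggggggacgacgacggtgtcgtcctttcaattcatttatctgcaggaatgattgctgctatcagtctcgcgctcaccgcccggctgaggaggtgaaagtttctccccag
Zic4: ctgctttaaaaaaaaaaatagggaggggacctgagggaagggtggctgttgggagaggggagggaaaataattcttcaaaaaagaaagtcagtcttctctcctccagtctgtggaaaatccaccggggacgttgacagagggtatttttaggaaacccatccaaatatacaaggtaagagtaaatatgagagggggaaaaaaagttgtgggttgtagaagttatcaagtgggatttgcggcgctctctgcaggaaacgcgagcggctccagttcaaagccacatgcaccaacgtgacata
Nr2f2: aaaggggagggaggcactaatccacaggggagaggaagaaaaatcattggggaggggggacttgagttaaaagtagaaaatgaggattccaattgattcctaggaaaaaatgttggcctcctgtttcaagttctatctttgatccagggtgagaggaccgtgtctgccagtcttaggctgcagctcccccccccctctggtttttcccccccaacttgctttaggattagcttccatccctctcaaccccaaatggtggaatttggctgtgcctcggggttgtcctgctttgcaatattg
Nr2f1: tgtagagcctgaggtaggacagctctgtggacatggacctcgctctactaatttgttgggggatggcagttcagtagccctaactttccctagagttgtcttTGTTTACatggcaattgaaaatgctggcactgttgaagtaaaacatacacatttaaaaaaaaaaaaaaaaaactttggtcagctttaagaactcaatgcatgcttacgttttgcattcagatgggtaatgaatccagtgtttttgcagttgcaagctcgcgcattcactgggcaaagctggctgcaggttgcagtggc
The upstream window of Nr2f1 (chr13:78198824-78199123, minus strand) held 1 Zic core at position 27 from the start, and the Zic5 window (chr14:122465609-122465908, minus strand) held 1 half-site, on the opposite strand, at position -175. A match describes the letters of the window and says nothing of binding, and a window without a match leaves the factor's action there unaddressed.

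At E12 the Nr2f genes were the most abundant of the 6 and Zic4 and Zic5 the least. Nr2f1 lay between 84.8 and 124.5 FPKM over the 4 early libraries and Nr2f2 between 71.8 and 139.8, ranges that overlap. Zic1 followed at 41.8 to 62.0 FPKM and Zic2 at 14.7 to 21.5. Zic5, at 2.37 to 3.65 FPKM, and Zic4, at 1.91 to 4.71, could not be put in order, since their ranges overlap. Zic1 thus stood below both Nr2f genes and above the other Zic genes in each early library.

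The order was different at E17.5. Zic1 was then the highest of the 6, at 51.3 to 65.4 FPKM, and it did not overlap with Nr2f1 (43.5 to 50.1) or Nr2f2 (37.5 to 43.6). The ranges of the 2 Nr2f genes overlapped slightly at this stage too, although within each library Nr2f1 was above Nr2f2 in 7 of 8, all but the wild-type one at E12.0. Zic2 (19.2 to 25.1 FPKM) and Zic4 (15.2 to 21.2) overlapped, and Zic5 was the lowest at 2.92 to 4.08.

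**Figure D1:**
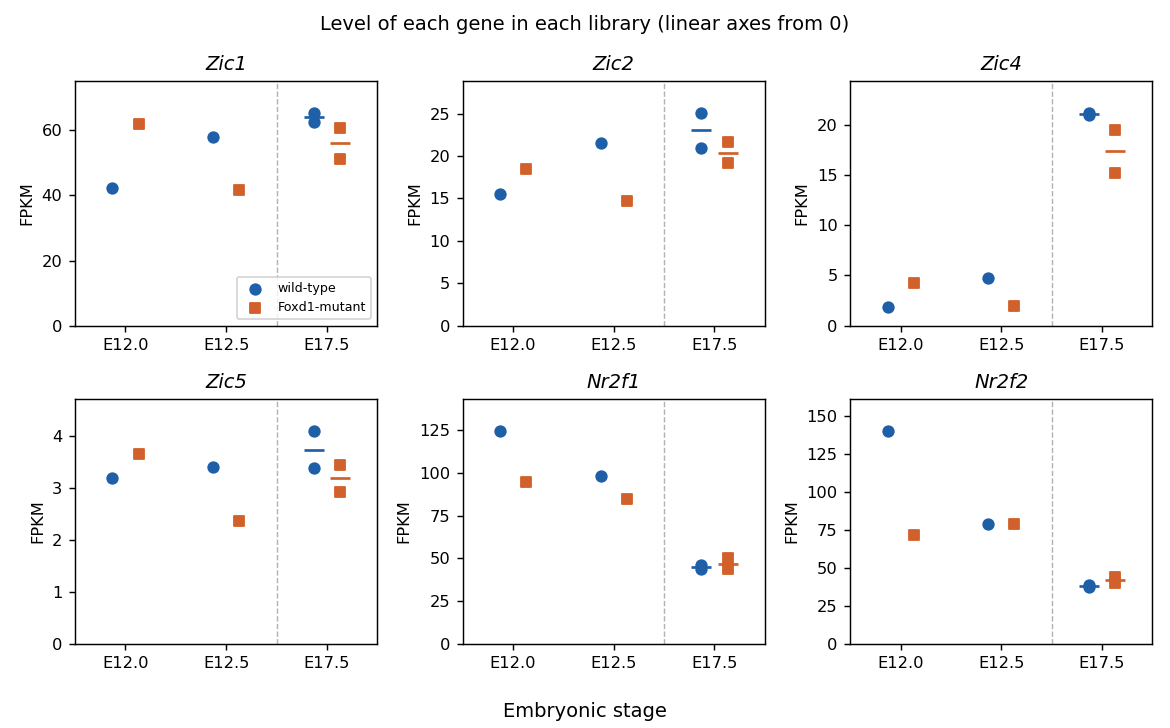
Level of the 6 genes in FPKM (linear vertical axes from 0) in each library by embryonic stage, with wild-type libraries as circles, Foxd1-mutant libraries as squares and a short line for the mean of the 2 libraries per genotype at E17.5; the dashed line parts the separately made E12 and E17.5 tables. Zic4 lies between 1.91 and 4.71 at E12 and between 15.2 and 21.2 at E17.5, while Nr2f1 and Nr2f2 lie lower at E17.5 than at E12 in every library.

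Among the Zic genes, Zic4 differed most between the ages. Its mean was 3.20 FPKM over the early and 19.2 over the late libraries, 6.01 times as much, a log2 difference of 2.33 where the median of 12519 genes differed by 0.27. Within a library, 68.2% to 85.9% of these genes were above Zic4 at E12 and 32.1% to 42.0% at E17.5, a ranking that does not depend on scaling. The early and the late tables list different transcript rows and were produced apart, so differences between ages are described and not tested.

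Zic1, Zic2 and Zic5 differed between the ages about as much as the typical gene did, with log2 differences of 0.25, 0.30 and 0.11. For the Nr2f genes the difference was in the other direction. Mean Nr2f1 was 100.5 FPKM at E12 and 45.8 at E17.5, and mean Nr2f2 was 92.3 and 39.98, which is 2.19 and 2.31 times lower at E17.5. Of all genes, 5.06% were lower at E17.5 by more than Nr2f1 and 4.89% by more than Nr2f2, and 3.04% were higher by more than Zic4. Summed FPKM of 13 proliferation genes lay between 462 and 589 at E12 and between 122 and 153 at E17.5, and that of 12 pan-neuronal genes between 1361 and 2333 and between 3530 and 3824, in that order. The part of this change in cell makeup in the members' levels was not tested. In tissue RNA, fewer cells of a type and less RNA per cell cannot be told apart.

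At E17.5 all 4 Zic genes had lower mean values in the mutant and both Nr2f genes slightly higher ones, and none of these differences passed the test. For Zic1, the most abundant of the family, wild-type libraries gave 65.4 and 62.7 FPKM and mutant libraries 60.8 and 51.3. For Zic4, its neighbour, wild-type libraries gave 21.2 and 20.95 FPKM and mutant libraries 19.5 and 15.2. For both genes the 2 mutant libraries lay below the 2 wild-type ones, which also held for 22.2% of all genes tested.

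Zic2, the gene that in the retina depends on Foxd1, had wild-type values of 25.1 and 21.0 FPKM and mutant values of 21.6 and 19.2. Zic5, next to Zic2, had wild-type values of 4.08 and 3.37 FPKM and mutant values of 3.44 and 2.92. In both cases the genotypes overlapped, with 1 mutant library above the lower wild-type library. Relative to the wild-type mean, the mutant mean differed by -12.4% for Zic1, -11.5% for Zic2, -17.53% for Zic4 and -14.7% for Zic5.

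Nr2f1 had wild-type values of 46.1 and 43.6 FPKM and mutant values of 43.5 and 50.1, so the genotypes overlapped. Nr2f2 had wild-type values of 38.7 and 37.5 FPKM and mutant values of 40.1 and 43.6. Here both mutant libraries were above both wild-type ones, as they were for 20.9% of all genes tested.

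Values were tested as log2(FPKM + 1) by limma, with adjustment over all genes whose mean reached 1 FPKM in the fitted libraries. At E17.5, 0 of 6 genes passed an adjusted p of 0.05, where 0.00756% of 13235 genes did, and 0 of 6 had an unadjusted p under 0.05, where 5.70% of genes did. Foxd1 itself, with a log2 change of -1.54 at E17.5, did not pass there either (limma adjusted p = 0.689, unadjusted p = 0.000942). It passed at E12 (limma adjusted p = 0.0305), but not over all stages or for the difference between ages (0.749 in both). The adjusted test at E17.5 can thus miss a large change. The log2 change was -0.27 for Zic4, with a standard error of 0.113 and a 95% interval of -0.56 to 0.01 (adjusted p = 0.689, unadjusted p = 0.0548). For Zic1 it was -0.19, with an interval of -0.41 to 0.02 and an unadjusted p of 0.0727. Zic2 and Zic5 had log2 changes of -0.17 and -0.18. For Nr2f2 the value was 0.13, with an interval of -0.02 to 0.28, and for Nr2f1 it was 0.06, with an interval of -0.14 to 0.25 (limma adjusted p = 0.689 and 0.808). The intervals of Zic4 and Zic1 thus reach from almost no difference to reductions of 0.56 and 0.41 on the log2 scale.

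Mutant replicate 2 held the lowest value of each Zic gene and the highest of both Nr2f genes at E17.5. Without it the log2 changes of Zic1, Zic2, Zic4 and Nr2f2 were -0.07, -0.08, -0.10 and 0.07, and that of Nr2f1 turned to -0.04. Without mutant replicate 1 those of Zic1 and Zic4 were -0.31 and -0.44, and without wild-type replicate 1 those of Zic2 and Zic5 were -0.04 and -0.07. The summed FPKM of 12 telencephalon markers was 57.4 and 59.7 in wild-type and 68.8 and 138.2 in mutant libraries, so it was highest in the same library. No telencephalon marker was at 0, and Emx1 was under 1 FPKM in 1 library of each genotype. Hypothalamus markers summed to 191 and 146 FPKM in the wild-type libraries and to 87.9 and 95.9 in the mutant ones, with none under 1 FPKM. Such sums are weighted to the most abundant markers. The median log2 change of these 12 was -0.36, with 11 lower and 1 higher in the mutant, and Avp changed most (-3.32). Summed meningeal markers were at 233 and 143 against 258 and 183 FPKM with none at 0, and endothelial ones at 132 and 119 against 144 and 128. The lowest Zic1 value was in mutant replicate 2 and the lowest meningeal sum in wild-type replicate 2. The part of other tissue in the genotype differences was not tested.

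**Figure D2:**
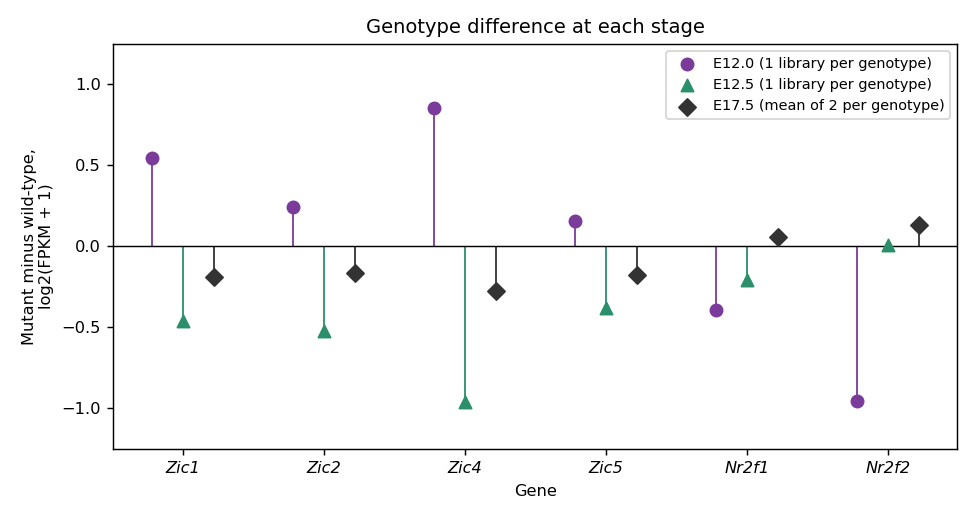
Genotype difference of each gene, mutant minus wild-type on the log2(FPKM + 1) scale (vertical axis), at E12.0 (circles, 1 library per genotype), E12.5 (triangles, 1 per genotype) and E17.5 (diamonds, difference of means of 2 per genotype). The 4 Zic genes are above 0 at E12.0 and below 0 at E12.5 and E17.5, and Nr2f2 stands at -0.95 at E12.0 and near 0 at E12.5.

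The early stages pointed in opposite directions for the Zic genes. At E12.0 the wild-type library held 42.2 FPKM of Zic1 and the mutant library 62.0, and at E12.5 the values were 58.0 and 41.8. For Zic2 the E12.0 values were 15.5 FPKM in wild-type against 18.5 in mutant, and the E12.5 values 21.5 against 14.7. Each Zic gene was thus higher in the mutant at E12.0 and lower at E12.5.

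Zic4 had the widest swing, with 1.91 FPKM in wild-type against 4.25 in mutant at E12.0, and 4.71 against 1.93 at E12.5. For Zic5 the values were 3.18 FPKM in wild-type against 3.65 in mutant at E12.0, and 3.39 against 2.37 at E12.5. At the estimated depth the 1.91 FPKM of Zic4 in the wild-type E12.0 library stand for about 18.2 fragments, with a counting error of 23.5%, and the other 3 early libraries for 169.6, 625.4 and 56.5. The wild-type side of the Zic4 difference at E12.0 is that small count, and the depth behind it is itself an uncertain estimate. The part of counting error in this difference was not tested.

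On the log2(FPKM + 1) scale, the differences at E12.0 and E12.5 were 0.54 and -0.46 for Zic1, 0.24 and -0.52 for Zic2, 0.85 and -0.96 for Zic4, and 0.16 and -0.38 for Zic5. The pattern of higher at E12.0 and lower at E12.5 was found in all 4 Zic genes, in neither Nr2f gene and in 26.4% of all 11952 genes, and the directions were the same with quantile normalization, with small RNA genes left out and with equal medians. With values as deposited, no gene of the 6 differed by 2-fold or more on this scale at either stage, against 2.55% of all genes at E12.0 and 0.703% at E12.5. Nr2f2 at E12.0 passed 2-fold with quantile normalization (-1.07) and with small RNA genes left out (-1.05). In plain FPKM, without the 1 added, Zic4 was 2.23 times higher in the mutant at E12.0 and 2.44 times lower at E12.5. The share of all genes past 2-fold in plain FPKM was not counted. The typical gene differed by 0.198 on the log2 scale at E12.0 and by 0.0812 at E12.5 (median of absolute differences), so the E12.0 pair lay further apart in general. The Zic differences at E12.5, at -0.38 to -0.96, were several times that stage's typical one, but with 1 library per genotype they have no replicate check.

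Nr2f2 showed its difference at E12.0. The wild-type library held 139.8 FPKM and the mutant library 71.8, which is 1.95 times lower, while the E12.5 values were 78.5 and 79.1. The wild-type E12.0 library is the one that stands apart for this gene, since the other 3 early libraries lay between 71.8 and 79.1. For Nr2f1 the values were 124.5 FPKM in wild-type against 94.4 in mutant at E12.0, and 98.3 against 84.8 at E12.5. Of the 6 genes, 1, Nr2f1, was lower in the mutant at both early stages, as were 21.8% of all genes. Hypothalamus markers summed to 244 FPKM in wild-type against 148 in mutant at E12.0, and to 228 against 238 at E12.5, so here it was the mutant E12.0 library that stood apart. Telencephalon markers summed to 93.4 against 74.9 and 71.1 against 72.5, and endothelial markers to 45.5 against 44.6 and 76.8 against 74.2, in the same order. Meningeal markers summed to 9.34 to 12.7 FPKM at E12, with 7 or 8 of 12 under 1 FPKM in each library. The part of these markers' cells in the differences was not tested.

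Fitted over both early stages with stage as a block, 0 of 6 genes passed the adjusted threshold, against 0.0335% of 11952 genes, and 0 of 6 had an unadjusted p under 0.05, against 1.41%. Since each early stage has 1 library per genotype, a gene's own spread here is the disagreement of the 2 early stages in the genotype difference. The limma fit combines it with the typical spread of genes of similar level, so the p depends on both. For a gene whose stages disagree widely, the interval is then narrower than its own values would give. The log2 change was -0.47 for Nr2f2, with a standard error of 0.252 and an interval of -1.12 to 0.18 (limma adjusted p = 0.976). For Nr2f1 it was -0.30, with an interval of -0.66 to 0.05. The opposite differences of the Zic genes cancelled, to 0.04 for Zic1, -0.14 for Zic2, -0.05 for Zic4 and -0.11 for Zic5, and the interval of Zic4, -1.18 to 1.08, was the widest of the 6. In a fit of all libraries with 1 E12.5 library left out, the E12.0 pair alone set the E12 change. It was -0.95 for Nr2f2, 0.85 for Zic4 and 0.54 for Zic1. With 1 E12.0 library left out it was 0.01, -0.96 and -0.46, in that order. Such fits took the spread of a single pair from the E17.5 libraries, so their p-values are not given.

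**Figure D3:**
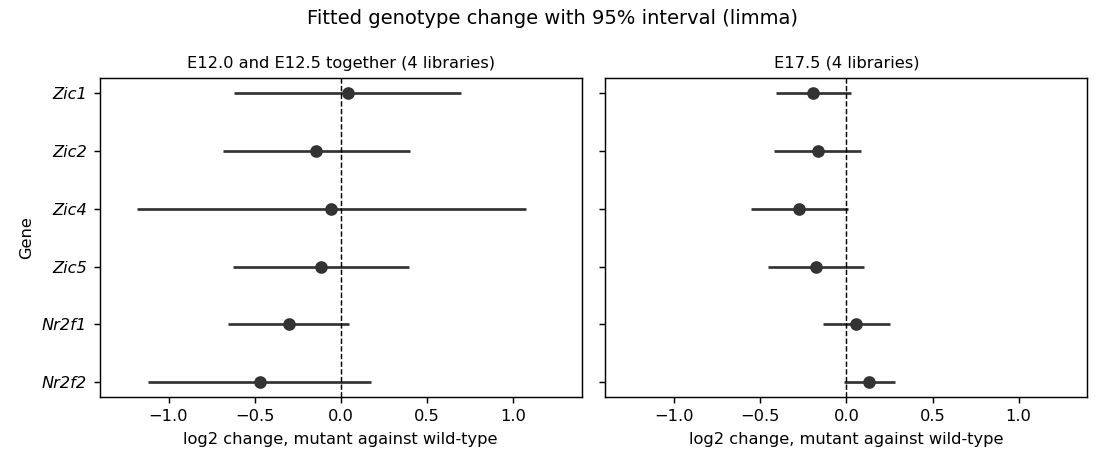
Fitted log2 change of each gene, mutant against wild-type (horizontal axis), with its 95% interval from limma, for E12.0 and E12.5 together on the left and E17.5 on the right, 4 libraries each. All 12 intervals include 0; those at E12 are wider, with Zic4 reaching from -1.18 to 1.08.

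Over all 3 stages the fitted change was negative for each of the 6 genes and small, where 50.7% of all genes tested had a positive one. It averages stages that differ in direction, and at no single stage were all 6 lower in the mutant. It lay between -0.17 (Nr2f2) and -0.08 (Zic1), and 0 of 6 passed the adjusted threshold (lowest limma adjusted p = 0.750), as did 0% of 12519 genes. At an unadjusted p under 0.05 there were 0 of 6, against 5.55% of all genes. The median over the 6 genes was -0.15, against 0.0016 over all genes tested.

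The genotype effect itself was then compared between the ages. For Nr2f1 the change at E17.5 exceeded that at E12 by 0.36 on the log2 scale, with an interval of 0.04 to 0.68 and an unadjusted p of 0.0336, which did not survive adjustment over all genes (limma adjusted p = 0.749). For Nr2f2 it exceeded it by 0.60, with an interval of -0.12 to 1.32. The Zic genes gave differences between -0.23 and -0.03, with standard errors between 0.225 and 0.551. In all, 0 of 6 genes passed the adjusted threshold, against 0.0320% of all genes, and 1 of 6 had an unadjusted p under 0.05, against 3.95%. Nr2f1 and Nr2f2 were thus lower in the mutant at E12 on average and had mean values above wild-type at E17.5, a contrast that did not pass the test over all genes. For Nr2f2 the E12 part came from the E12.0 pair (-0.95, against 0.01 at E12.5). Without mutant replicate 2 the E17.5 change of Nr2f1 was -0.04.

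The E17.5 tables list 2 transcripts of Nr2f2, and their values are given apart. Neither passed the test, and whether their changes differ from each other was not tested. The longer transcript encodes the full receptor of 414 amino acids, and the shorter one, from the upstream start, a protein of 281 amino acids without the amino-terminal DNA-binding part. The longer-protein transcript had wild-type values of 25.3 and 23.9 FPKM and mutant values of 25.1 and 25.7, so the genotypes overlapped. The shorter-protein transcript had wild-type values of 13.4 and 13.6 FPKM and mutant values of 15.1 and 18.0, so both mutant values were above both wild-type ones, as they were for 20.0% of all transcript rows tested. Its share of Nr2f2 was 34.7% and 36.2% in wild-type and 37.5% and 41.2% in mutant libraries.

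Fitted row by row over 16564 transcript rows, of which 0 (0%) passed the adjusted threshold and 961 (5.80%) had an unadjusted p under 0.05, the shorter-protein transcript had a log2 change of 0.27, with an interval of 0.02 to 0.52 and an unadjusted p of 0.0396 (limma adjusted p = 0.748). The longer-protein transcript had one of 0.04, with an interval of -0.10 to 0.19 (limma adjusted p = 0.828). This split was examined after the values had been seen. The 2 transcripts share exons, so their levels are estimates that divide shared fragments, and the E12 tables give both in 1 row.

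**Figure D4:**
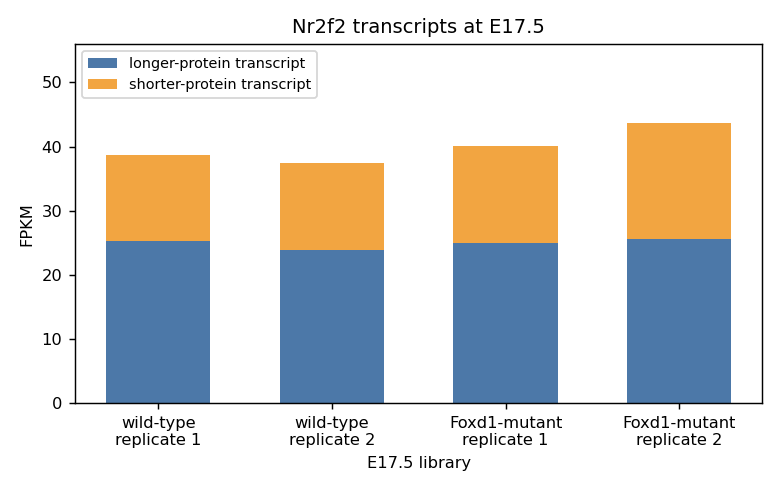
Stacked FPKM (vertical axis from 0) of the 2 Nr2f2 transcripts in each of the 4 E17.5 libraries, the longer-protein transcript below and the shorter-protein one above. The lower part is level at 23.9 to 25.7 in all 4 libraries, and the upper part is 13.4 and 13.6 in wild-type and 15.1 and 18.0 in mutant libraries.

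Ratios within a library showed how closely paired genes kept together. They do not depend on scaling, apart from the 1 FPKM added where a log2 ratio is given. Zic1 was 12.3 to 22.1 times Zic4 at E12 and 2.99 to 3.37 times Zic4 at E17.5, without overlap between the ages. Zic2 was 4.87 to 6.57 times Zic5 in all 8 libraries, at both ages and in both genotypes. Nr2f1 was 0.890 to 1.32 times Nr2f2. The Zic2 to Zic5 ratio was lower at E12.0, at 4.87 and 5.06, than at E12.5 and E17.5, at 6.14 to 6.57. The Zic1 to Zic4 pair kept its ratio within E17.5 alone.

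Between genotypes these ratios differed little. At E17.5 the log2 ratio in the mutant minus that in wild-type was 0.08 for Zic1 to Zic4, 0.01 for Zic2 to Zic5 and -0.07 for Nr2f1 to Nr2f2. The exact permutation test, two-sided, gave p = 0.333, 0.667 and 0.333, and with 6 arrangements of the libraries it cannot go below 0.333. Over all 8 libraries, permuting genotype within stage, the differences were 0.09, -0.01 and 0.09, with exact p = 0.583, 0.917 and 1, where 0.0833 is the smallest that 24 arrangements allow. None of these designs can reach 0.05, and in the means over all stages the opposite early differences partly cancel.

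**Figure D5:**
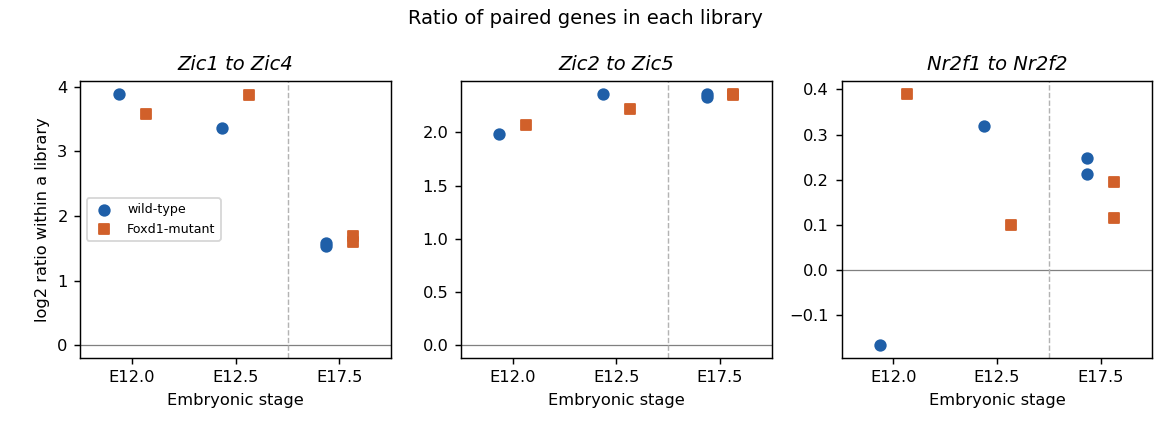
Log2 ratio of (FPKM + 1) of 2 genes within each library (vertical axis, a separate scale for each panel) by embryonic stage, for Zic1 to Zic4, Zic2 to Zic5 and Nr2f1 to Nr2f2, with wild-type as circles and Foxd1-mutant as squares. The Zic1 to Zic4 ratio is 3.37 to 3.89 at E12 and 1.54 to 1.69 at E17.5, and that of Zic2 to Zic5 lies between 1.98 and 2.36 throughout.

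Genes related in family or function to the 6 did not pass the test either. Of 7 other zinc finger genes of the Zic, Gli and Glis families, 5 were high enough to be tested at E17.5, 3 with higher and 2 with lower values in the mutant, and 6 at E12, 1 higher and 5 lower. Gli1, a target and effector of hedgehog signalling, had the largest change at E17.5 (0.19), and Gli2, an activator in that pathway, at E12 (-0.54). Of 10 nuclear receptors related to Nr2f1 and Nr2f2 or pairing with them, 7 of 10 tested were higher at E17.5 and 4 of 9 at E12. The largest changes there were in Nr2f6, another COUP-TF relative, at E17.5 (-0.36), and in Nr2e1, the neural progenitor receptor Tlx, at E12 (-0.42). Of 12 cofactors and reported targets of Zic and Nr2f proteins, 5 of 11 tested were higher at E17.5 and 4 of 10 at E12, with Bcl11a, a zinc finger partner of COUP-TFs, the most changed at both (0.24 and -0.46). In these 3 lists 0 genes passed the adjusted threshold in any of the 4 comparisons. Their median changes at E17.5 were 0.11, 0.02 and -0.02, beside -0.17 for the 6 genes and 0.0028 for all genes. At E12 they were -0.16, -0.0038 and -0.03, beside -0.13 for the 6 genes and 0.01 for all genes.

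The genes most like each of the 6 in pattern were sought by Pearson correlation of log2(FPKM + 1) over the 8 libraries after the mean of each stage was subtracted, among 12518 other genes. With 1 library per genotype, each early stage then gives a pair of mirrored points, and the E12.0 pair weighs most. Zic2 and Zic5 were near each other (r = 0.985, among the nearest of each), and Zic1 and Zic4 had r = 0.986. For Zic1 the nearest were Ptprr, a tyrosine phosphatase (0.996), Mrgpre, a G protein-coupled receptor (0.994), and Zfp653, a zinc finger gene (0.992). Zic4 shared Zfp653 (0.992) and Mrgpre (0.987) with it and had Tsr3, a ribosome biogenesis gene, at 0.988. Gper1, a membrane estrogen receptor, was near both Zic2 (0.992) and Zic5 (0.972), with Cnnm2, a magnesium transport gene, near Zic2 (0.981) and Slc9a3r1, a scaffold gene, near Zic5 (0.978). For Nr2f1 the nearest were Igfbp7, a growth factor binding protein (0.991), Zc4h2, a zinc finger gene (0.989), and Thbs1, which encodes thrombospondin (0.988). For Nr2f2 they were Cbfa2t2, a corepressor (0.999), Map3k13, a kinase (0.998), and Sos2, a Ras exchange factor (0.998). The 2 Nr2f genes had r = 0.846 with each other, and Zic1 and Nr2f2 r = -0.763. With the E12.0 libraries left out, 0 of the 3 nearest genes were kept for each of the 6, so the lists rest on that pair of libraries.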

How the data were processed

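Hypothalamic RNA of 8 libraries was analysed from the FPKM values the authors deposited, 1 table per library. Per the submitters' processing notes, TopHat, Cufflinks and mouse build mm9 were used, and versions and strand setting are not given in the sources used here, so an overlapping or antisense transcript cannot be told apart from a gene. Rows of a symbol were summed, giving 23440 symbols at E12 and 24002 at E17.5, and 8 E12 rows without a gene name (0.0285% to 0.0360% of FPKM) were left out. Small RNA genes carried 9.77% to 24.5% of FPKM. Depth was estimated from steps between low values of transcripts over 2500 nt, after taking off a fragment length of 170 nt. At this step size, 79.3% to 80.6% of the values worth at most 5 fragments were whole to within 0.1 at E17.5, and 31.0% to 41.0% at E12, too few for a count test. FPKM without counts gives no interval, and counting errors given are estimates. Transcript lengths and coding lengths came from a GENCODE annotation.

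Values were tested as log2(FPKM + 1) with limma 3.58.1 (R 4.3.3, variance trend, two-sided, Benjamini-Hochberg adjustment over all genes whose mean reached 1 FPKM, threshold 0.05). The fits were E17.5 (4 libraries), E12 (4 libraries, stage as a block), all stages (8 libraries, stage as a block) and the difference E17.5 minus E12 (8 libraries, interaction). Ratios of paired genes were tested by exact permutation of the genotype labels in Python. The limma fits were tested on simulated data. All 6 genes were named in each comparison, with Foxd1, the 3 genes nearest in pattern to each and the most changed gene of a list. Predicted, small RNA and sex-linked genes were skipped. The genes and lists were chosen with earlier results of these data known. Alternatives changed the pseudocount, filter, scaling, trend, row joining, blocks and libraries, and the fit of single Nr2f2 transcripts was added after the data had been seen. Python 3.11.15, numpy 2.4.6, pandas 2.3.3 and matplotlib 3.10.9 were used.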

Additional observations from a re-analysis of the deposited data

Results flagged for a closer look

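For 5 of the 6 genes the libraries of one stage lay on one side and those of another stage on the opposite side of the genotype comparison. With 1 library per genotype, any difference at E12.0 or E12.5 counts as such a side, however small. For Nr2f2 the E12.5 values were 78.5 and 79.1 FPKM. The direction of the Zic genes, higher at E12.0 and lower at E12.5, was that of 26.4% of 11952 genes. Over all genes the differences at E12.0 and E12.5 had a correlation of -0.064. Shares for the other changes of side were not counted. The differences between E12.0 and E12.5 were not tested, because each of these stages has 1 library per genotype. On the log2(FPKM + 1) scale, mutant minus wild-type at E12.5 less that at E12.0 was -1.01 for Zic1, -0.76 for Zic2, -1.82 for Zic4, -0.54 for Zic5 and 0.96 for Nr2f2. For E17.5 less E12.0, where all 4 late libraries lay on the opposite side, it was -0.74 for Zic1, -1.13 for Zic4 and 1.08 for Nr2f2. These 3 values can be tested only in the fits that leave out 1 E12.5 library. Those fits rest on 1 library per genotype at E12.0 and take its spread from the E17.5 libraries, so their p-values are not given. All 8 values use the E12.0 pair, which holds the library of lowest estimated depth.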

How the results depend on the processing

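None of the 6 genes passed the threshold at E17.5 or over all stages under any alternative. Zic5, and at E12 also Zic4, could not be tested under the stricter filter of 5 FPKM. The count of genes passing ranged from 0 to 3 of 6 at E12 and from 0 to 3 for the difference between ages when 1 library was left out (highest without the wild-type E12.5 library, with Zic1, Zic4 and Nr2f2; 2 at E12 and 1 for the difference without the mutant E12.5 library). These fits leave 1 sample in an arm, which is assumed to vary like the other groups, and the cause was not tested. Without 1 E12.5 library far more genes of all kinds passed as well, as the counts over all genes below show. The passing in these fits is thus not particular to the 6 genes. The E17.5 labels share replicate numbers, and nothing else given ties same-numbered libraries together. Their deviations had a correlation of 0.028 across genes. With 2 pairs this cannot decide whether the libraries were paired. The replicate block called 16 genes in place of 1 at E17.5 and 0 of the 6.

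Leaving out 1 library turned the direction of several log2 changes. At E12 the range was -0.46 to 0.54 for Zic1, -0.52 to 0.24 for Zic2, -0.96 to 0.85 for Zic4, -0.38 to 0.16 for Zic5 and -0.95 to 0.011 for Nr2f2. At E17.5 it was -0.042 to 0.16 for Nr2f1. Over all stages it was -0.28 to 0.053 for Zic1, -0.50 to 0.10 for Zic4 and -0.25 to 0.092 for Nr2f2. For the difference it was -0.74 to 0.27 for Zic1, -0.41 to 0.36 for Zic2, -1.13 to 0.69 for Zic4 and -0.33 to 0.21 for Zic5. Leaving out both E12.0 libraries gave -0.46 for Zic1 and 0.011 for Nr2f2 at E12, 0.092 for Nr2f2 over all stages, and differences of 0.27, 0.36, 0.69 and 0.21 for Zic1, Zic2, Zic4 and Zic5. With small RNA genes left out the change of Zic1 at E12 was -0.0059 and the difference of Zic2 was 0.043, and with quantile normalization Zic4 at E12 was at 0.0012. The Zic2 to Zic5 ratio difference was 0.020 over all stages with a pseudocount of 0.1, and at E17.5 it ranged from -0.0030 to 0.024 with 1 library left out. That of Nr2f1 to Nr2f2 at E17.5 was 0.015 with the highest row of a symbol.

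Counts over all genes moved by more than 1.5 times as follows. At E17.5, in place of 1, there were 0 with no filter or a filter at 5 FPKM, and 1 to 44 with 1 library left out. At E12, in place of 4, there were 1 with a pseudocount of 5, quantile normalization or no trend, 0 with no filter, 78 with no stage block, 51 without both E12.0 libraries and 49 to 2414 with 1 library left out. For the difference, in place of 4, there were 1 with a pseudocount of 0.1 or 5 or quantile normalization, 0 with a filter at 5 FPKM or equal medians, 48 without both E12.0 libraries and 0 to 1465 with 1 library left out. With 2 libraries per genotype at most, the number of libraries limits the precision for the 6 genes.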
